A study of Mus musculus with 18 samples.

Results

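Myc, Mycn and 36 genes whose products build ribosomes in the nucleolus were examined in left ventricles of mice at different stages of pregnancy and of wheel running. The 38 genes were chosen by symbol, and a probe set was taken only where it is annotated to one of these symbols alone. All 38 had at least 1 such probe set, 72 in all, among 34945 probe sets annotated to 1 gene and 18193 genes with a probe set of their own. The 18 Affymetrix mouse genome arrays hold 3 arrays for each of 6 groups, and all animals were wild-type C57Bl/6 females aged 3 to 4 months. The 7EX and 21EX groups ran voluntarily on a wheel for 7 and 21 days, MP was day 11 of pregnancy, LP was days 18 to 19, 0PP was within 12 hours after birth, and NP/Sed were sedentary virgins in diestrus. RNA of 2 to 3 left ventricles was pooled in equal parts for each array, so the n of 3 counts pools, and p-values measure the spread between pools. The questions were whether this group of genes was higher or lower in each growth state than in NP/Sed, and whether pregnancy, birth and exercise differed from one another.

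Myc and Mycn are transcription factors of one family. They pair with Max, bind short DNA stretches called E-boxes, and in many cell types raise the transcription of genes for ribosome synthesis. Ribosomes are assembled in the nucleolus: RNA polymerase I transcribes the long precursor of ribosomal RNA, box C/D and box H/ACA particles methylate it and convert uridines to pseudouridine, and large sets of assembly factors fold, cut and export the small and the large subunit. A heart muscle cell that grows without dividing has to make more protein, and ribosome production is known to rise in growing hearts.

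The best known E-box of Myc and Max is CACGTG, which reads alike on both strands. It was searched in the 250 bases before the start of each gene in a RefSeq promoter table of build GRCm38.p6, where 31 of the 38 members were matched with 34 windows. Of the 31, 2 held it (6.45%), against 6.86% of the 27025 genes in the table and 6.02% of all 32851 windows. The match of Utp18, a component of the small-subunit processome, lies on chromosome 11 (chr11:93885767-93885826, minus strand) and starts 20 bases before the start site. The match of Nop2, a methyltransferase of the large subunit's RNA, lies on chromosome 6 (chr6:125131796-125131855, plus strand) and starts 60 bases before it. Both stretches of 60 bases are shown because they are the only windows among the members with the motif, which stands in capitals, and both end before the start site, in sequence upstream of the first exon.
Utp18: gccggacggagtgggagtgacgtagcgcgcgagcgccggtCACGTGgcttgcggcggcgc
Nop2: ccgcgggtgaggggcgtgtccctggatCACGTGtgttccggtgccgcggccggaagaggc
The share of members with the motif was near that of all genes, and none of the 6 members that rose in 0PP held it in a window given here (5 of the 6 were matched, and Rrp12 was not). A match of letters is a description and not a binding site, and a window without these letters shows nothing about Myc.

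The values are the authors' RMA values on a log2 scale, and fold changes are differences of group means on that scale, given ± standard error (n = 3 arrays in each group). A gene is read at its probe set of highest mean over the 18 arrays. It is said to rise or fall where the p of limma, two-sided and with the Benjamini-Hochberg adjustment across 45037 probe sets, is under 0.05. The mean log2 value of the members ran from 5.50 (Myc) to 10.12 (Npm1) with a median of 7.63, beside a median of 6.03 over all genes. Array medians lay between 4.93 and 5.02, and 0 of the 9 cardiomyocyte markers passed in any of the 9 comparisons made by limma, with a mean level between 14.17 and 14.24 in all 18 arrays. Most of them are among the brightest genes measured, the highest mean of any gene being 14.77, and whether the scale limits them was not tested. In bulk tissue, fewer cells of a type and less RNA per cell cannot be told apart.

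More members rose in 0PP than in any other group set against NP/Sed. In 0PP, 6 of 38 members rose and 0 fell at an adjusted p under 0.05 in limma, where 2.40% of all genes rose and 0.302% fell. In 7EX 1 rose and 0 fell (all genes 0.693% and 0.104%), and in 21EX 1 rose and 0 fell (2.25% and 0.418%). In MP and in LP 0 members passed in either direction (all genes 0.956% and 0.198% in MP, and 1.80% and 0.555% in LP), and the Cyber-T test made 0 calls in MP and 1 in LP. At an unadjusted p under 0.05, 0 members were higher and 3 lower in MP, beside 9.46% and 4.10% of all genes, and 10 were higher and 1 lower in LP, beside 10.1% and 5.28%. By the F-test over all 6 groups 7 members differed, which were Mycn, Ddx21, Rrp12, Pno1, Nob1, Rrs1 and Nip7, against 7.50% of all genes. Each of the 6 risers in 0PP changed by less than 1.5-fold, and 0 passed the 75% change that the study used as its limit.

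**Figure D1:**
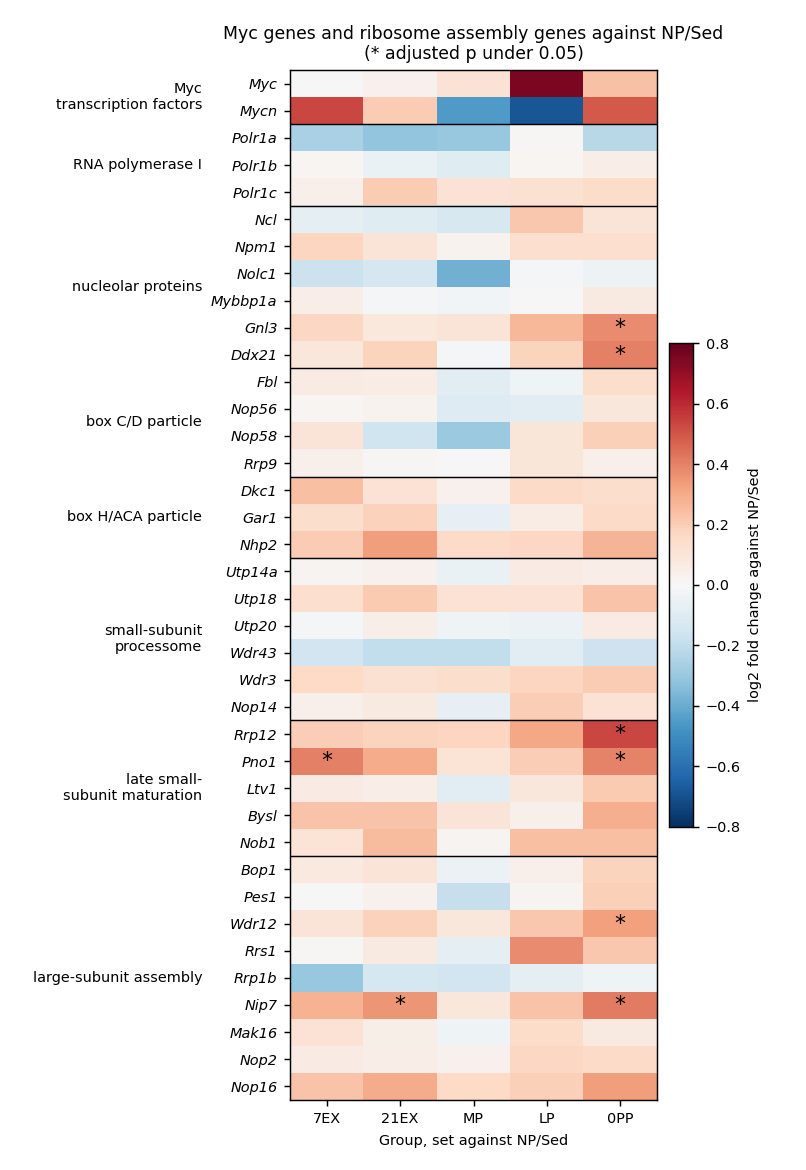
Log2 fold change of the 38 members (rows, by role) in 7EX, 21EX, MP, LP and 0PP (columns), each against NP/Sed, with a star at an adjusted limma p under 0.05. The 0PP column holds 6 of the 8 stars, and 34 of its 38 cells are above 0, while the MP column holds no star.

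At the brightest probe sets, the direction was shared more widely than the calls. The fold change against NP/Sed was above 0 for 34 of 38 members in 0PP, with a median of 0.17, where 52.9% of all genes were above 0 with a median of 0.01. It was above 0 for 31 members in LP (median 0.12), 30 in 7EX (0.07), 30 in 21EX (0.07) and 16 in MP (-0.03), beside medians over all genes of 0.01 in LP, 0.03 in 7EX, 0.04 in 21EX and 0.03 in MP and shares above 0 of 52.0% in LP, 58.2% in 7EX, 60.5% in 21EX and 59.7% in MP. Single arrays moved these medians: that of LP was 0.07 without LP array 3, that of 7EX 0.12 without 7EX array 1 and that of MP 0.04 without MP array 1. The median of 0PP was 0.10 to 0.22 under other ways of processing. Of the 23 members with several probe sets, 11 had all of them above 0 in 0PP and 12 were mixed. In LP 8 of these had all above 0, 2 all below and 13 were mixed. In 0PP all 3 arrays lay above all 3 NP/Sed arrays for 18 members and below them for 2 (Polr1a and Wdr43), against 15.2% and 8.35% of all genes. In the other groups the arrays lay wholly above and wholly below NP/Sed for 9 and 2 members in 7EX (all genes 12.8% and 5.56%), 13 and 2 in 21EX (18.7% and 5.98%), 3 and 3 in MP (12.6% and 5.57%) and 10 and 1 in LP (11.0% and 7.68%). The 5 groups share the same 3 NP/Sed arrays, so their values are set side by side and not correlated. Members also moved together between arrays of the same group. The median r of their pairs within groups was 0.28 (580 of 703 pairs above 0), against 0.005 for pairs of all genes. Counts of members above 0, here and below, are therefore not counts of separate observations. The group of highest mean was 0PP for 18 members, LP for 9 and MP for 0, and the group of lowest mean was MP for 18 members and NP/Sed for 15. The same counts were not made over all genes, so they cannot be read as particular to the members.

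Myc and Mycn had their extremes in late pregnancy, Myc its highest mean and Mycn its lowest, although neither passed against NP/Sed in the limma fit given here. Myc read 5.92, 5.49 and 6.78 in the 3 LP arrays, against 5.44, 5.25 and 5.23 in NP/Sed. The LP arrays lay above the NP/Sed arrays but spread over more than 1 log2 unit, and the difference of 0.76 ± 0.19 had an adjusted p of 0.0564 (95% interval 0.35 to 1.16). It was 0.40 without LP array 3 and 1.04 without LP array 2, where the adjusted p was 0.00307. With any 1 array left out, the adjusted p ran up to 0.204. Myc in LP also passed with an intensity trend (0.0405), with a filter on mean level (0.0409), with median centring (0.0449) and with probe sets averaged by gene (0.0454). It did not pass after repeated quantile normalization (0.0560), with the replicate number as a block (0.0598) or with Cyber-T (0.0628). Nor did it pass with a covariate for the 3' minus 5' signal (0.0694) or in a fit of the LP and NP/Sed arrays alone (0.297). In the other groups Myc stayed in a narrow range, at 5.17, 5.27 and 5.46 in 7EX, 5.31, 5.29 and 5.41 in 21EX, 5.35, 5.53 and 5.4 in MP and 5.49, 5.59 and 5.54 in 0PP. At these levels Myc stood lowest among the members and at the 42.9th percentile of all genes, in the lower part of the range of all genes.

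Mycn, at its brightest probe set, was lowest in LP and highest in 7EX and 0PP. It read 7.16, 7.97 and 7.10 in 0PP, against 6.41, 6.09 and 6.18 in LP. The groups did not overlap, and Mycn rose in 0PP against LP by 1.18 ± 0.22, or 2.27-fold (adjusted p = 0.0145, 95% interval 0.72 to 1.64). It was the only member that passed in this comparison, where 0.868% of all genes rose and 0.462% fell, and one of the genes past the 75% limit, which 0.0879% of all genes reached in this direction. Array 2 of 0PP stood apart at 7.97, and without it the difference was 0.90 with an adjusted p of 0.0903. Without LP array 2 it was 1.11 with an adjusted p of 0.0710, and in a fit of the LP and 0PP arrays alone the adjusted p was 0.0772. Col1a2, a fibroblast collagen, and Alas2, a marker of red cell precursors, also rose in 0PP against LP among the markers of other cells, and the 3 atrial markers were higher by mean (median 0.73) without passing. Their part in this result was not tested.

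Against NP/Sed, at 6.81, 6.80 and 7.13, Mycn did not pass in any single group by limma. It read 7.21, 7.22 and 7.91 in 7EX (0.53 ± 0.22, adjusted p = 0.290), 6.98, 7.33 and 7.04 in 21EX (0.20 ± 0.22) and 6.17, 6.87 and 6.36 in MP (-0.45 ± 0.22). The LP arrays all lay below the NP/Sed arrays (-0.69 ± 0.22, adjusted p = 0.143 by limma). With the variance of Cyber-T and a Benjamini-Hochberg adjustment, Mycn fell in LP (adjusted p = 0.00406). The study's own calls used a posterior probability, which was not computed here. They also asked for a 75% change, which this difference does not reach. In order of mean the groups ran LP (6.23), MP (6.46), NP/Sed (6.91), 21EX (7.12), 0PP (7.41) and 7EX (7.45), and no neighbours that were tested passed: LP minus MP was -0.24 ± 0.22, MP minus NP/Sed -0.45 ± 0.22 and 21EX minus NP/Sed 0.20 ± 0.22. Averaged over MP, LP and 0PP, Mycn was lower than over 7EX and 21EX (-0.58 ± 0.14, with means of 6.70 in pregnancy and after birth, 7.28 with exercise, and adjusted p = 0.0297), the only member of 38 to pass there, where 1.73% of all genes were higher and 2.36% lower. That average joins a low LP to a high 0PP, and with a covariate for the 3' minus 5' signal its adjusted p was 0.355. In the same comparison 4 of 5 markers of dividing cells (Mki67, Top2a, Cdk1 and Birc5), Cdh5 of endothelium and Lum of fibroblasts were lower, and Cd163, Adipoq and Alas2 were higher, which was not tested as a part of it.

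The other Mycn probe sets did not show this pattern. The next brightest read 6.53, 6.55 and 6.47 in 0PP, against 6.39, 6.70 and 6.63 in LP (-0.05 ± 0.09), and the dimmest read 5.39, 5.28 and 5.24 in 0PP, against 5.45, 5.44 and 4.81 in LP (0.07 ± 0.14). With the 3 probe sets averaged the difference between 0PP and LP was 0.40, with an adjusted p of 0.0611. The change in Mycn therefore stands on 1 probe set of 3.

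**Figure D2:**
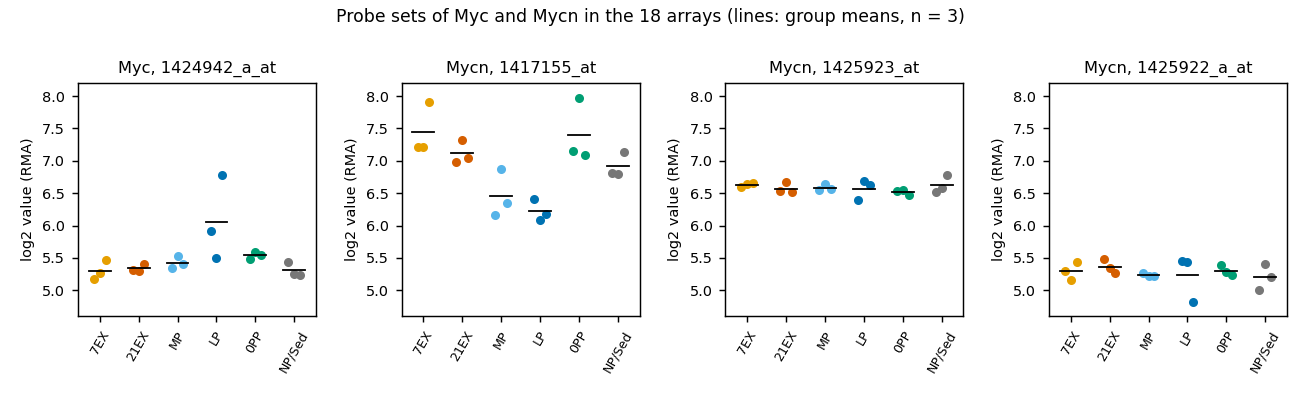
Log2 RMA value (vertical axis) of the probe set of Myc and the 3 probe sets of Mycn in each of the 18 arrays, by group, with a line at the group mean (n = 3). At the brightest Mycn probe set the 0PP arrays sit between 7.10 and 7.97, above the LP arrays at 6.09 to 6.41, while the other Mycn probe sets stay level, and Myc is spread widely in LP only.

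RNA polymerase I, which transcribes the ribosomal RNA genes, showed no passing subunit among the 3 listed in any of the 9 comparisons by limma. Polr1a, the catalytic subunit, was the one with the smallest F-test p of the 3. It read 7.55, 7.59 and 7.40 in 0PP and 7.54, 7.13 and 7.59 in 21EX, against 7.68, 7.91 and 7.62 in NP/Sed (-0.22 ± 0.15 in 0PP, and -0.32 ± 0.15 in 21EX). At this probe set all arrays of both groups lay below NP/Sed, with adjusted p of 0.461 and 0.259. The next brightest Polr1a probe set went the other way, at 0.20 in 21EX and 0.11 in 0PP. Of the 5 probe sets of Polr1a, 2 were above NP/Sed by mean in 21EX and 1 in 0PP. Polr1b, another core subunit, was between -0.10 and 0.06 in the 5 groups, and Polr1c, which RNA polymerases I and III share, between 0.04 and 0.21. The other Polr1c probe set ran from -0.02 in MP to 0.23 in 7EX.

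Of the 6 nucleolar proteins, 2 rose in 0PP. Gnl3, the nucleolar GTPase nucleostemin, read 8.11, 8.45 and 8.31 in 0PP, against 7.90, 7.90 and 7.94 in NP/Sed. Its arrays did not overlap between these groups, and the fold change was 0.38 ± 0.09 (1.30-fold, adjusted p = 0.0454). The call is at the edge of the threshold: it was lost without any one of 13 of the 18 arrays (adjusted p up to 0.190), after repeated quantile normalization (0.0947) and with the 3' minus 5' covariate (0.0760). Gnl3 lay above NP/Sed in all arrays of 7EX, 21EX and LP too, without passing (0.17, 0.09 and 0.26). Ddx21, a nucleolar RNA helicase, read 7.14, 7.35 and 7.30 in 0PP, against 6.75, 6.99 and 6.84 in NP/Sed (0.40 ± 0.09, adjusted p = 0.0321). In LP Ddx21 was at 7.19, 6.95 and 6.99, overlapping NP/Sed. Npm1, the nucleolar chaperone nucleophosmin and the most abundant of the members by array signal, was between 0.03 and 0.17 in the 5 groups, and Mybbp1a, a nucleolar protein that binds Myb, between -0.02 and 0.07. At their other probe sets Npm1 ran from -0.08 in MP to 0.18 in LP, and Mybbp1a from 0.01 in MP to 0.25 in 0PP.

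Nucleolin (Ncl), the nucleolar RNA-binding protein, differed by probe set. At its brightest it read 9.96, 9.82 and 10.26 in LP, against 9.65, 9.75 and 9.61 in MP (0.34 ± 0.12, adjusted p = 0.186). At the next brightest it read 8.73, 8.80 and 9.15 in LP, against 8.44, 8.0 and 7.95 in MP, which is a rise of 0.77 ± 0.15 (adjusted p = 0.0133). That probe set also fell in MP and in 21EX against NP/Sed. The fold change was -0.64 ± 0.15 in MP (adjusted p = 0.0452) and -0.65 ± 0.15 in 21EX (adjusted p = 0.0311), with 8.28, 8.03 and 8.05 in 21EX, against 9.03, 8.64 and 8.63 in NP/Sed. The other 3 probe sets of Ncl were within 0.31 of NP/Sed in these groups and none passed. Nolc1, a chaperone of the small nucleolar particles, passed at 1 of 3 probe sets. Its second brightest read 6.70, 6.48 and 6.27 in LP, against 5.82, 6.01 and 6.14 in MP (0.49 ± 0.11, adjusted p = 0.0282), and its brightest 6.37, 6.24 and 6.69 in LP, against 6.07, 6.04 and 6.05 in MP (0.38 ± 0.12, adjusted p = 0.135). At both of these probe sets of Nolc1 and of Ncl the LP arrays lay above all MP arrays, while the third of Nolc1 differed by 0.14 ± 0.15.

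None of the 4 proteins of the box C/D particle passed by limma in any comparison. Nop58, a core protein, had the smallest F-test p of them. It read 8.10, 7.87 and 8.51 in LP, against 7.78, 7.69 and 7.83 in MP (0.40 ± 0.13, adjusted p = 0.142), and 8.28, 8.26 and 8.23 in 0PP, against 8.18, 7.98 and 8.04 in NP/Sed (0.19 ± 0.13). Fibrillarin (Fbl), the methyltransferase of the particle, read 8.88, 8.94 and 8.82 in 0PP, against 8.64, 8.68 and 8.78 in LP (0.18 ± 0.08, adjusted p = 0.453). Nop56, a further core protein, and Rrp9, which binds the particle that cuts the precursor, were between -0.10 and 0.10 in the 5 groups. The other Nop56 probe set ran from -0.27 in MP to -0.02 in 0PP.

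At their brightest probe sets the box H/ACA proteins had means above NP/Sed in all 5 groups save Gar1 in MP, and none passed by limma. Nhp2, which binds the guide RNA, came nearest, at 7.85, 7.75 and 7.97 in 21EX, against 7.42, 7.54 and 7.61 in NP/Sed (0.33 ± 0.09, adjusted p = 0.0620). In 0PP it read 7.67, 7.87 and 7.85 (0.27 ± 0.09, adjusted p = 0.134). All arrays of both groups stood above NP/Sed. Dyskerin (Dkc1), the pseudouridine synthase, was highest in 7EX at 8.67, 8.60 and 8.69, against 8.38, 8.49 and 8.37 in NP/Sed (0.24 ± 0.08, adjusted p = 0.149). The next brightest Dkc1 probe set was at 0.02 in 7EX, -0.17 in 21EX, -0.31 in MP, -0.02 in LP and -0.14 in 0PP. Of the 3 Dkc1 probe sets, 2 were above NP/Sed by mean in 21EX, MP and LP, and 1 in 0PP. Gar1, a core protein, was between -0.07 and 0.18.

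The small-subunit processome, the large particle that makes the first cuts in the precursor, also held no passing member among 6. Nop14, one of its factors, had the smallest F-test p, with 7.16, 7.05 and 7.27 in LP, against 6.92, 6.96 and 6.81 in MP (0.27 ± 0.09, adjusted p = 0.148). Wdr43 was the one member of the 6 below NP/Sed in 0PP. At its brightest probe set it read 7.41, 7.43 and 7.36 in 0PP, against 7.53, 7.48 and 7.68 in NP/Sed, with all 0PP arrays below (-0.17 ± 0.09, adjusted p = 0.345). This probe set was below NP/Sed in all 5 groups. The other Wdr43 probe set went the other way, 0.13 to 0.29 above NP/Sed in the 5 groups. In 0PP that one read 7.02, 6.96 and 6.95, all above NP/Sed at 6.61, 6.90 and 6.78. Utp18 was 0.23 ± 0.11 and Wdr3 0.20 ± 0.09 above NP/Sed in 0PP. At their brightest probe sets Utp14a and Utp20 were within 0.07 of NP/Sed in all 5 groups. The other Utp14a probe set is dim, with a mean log2 value of 4.11, and ran from -0.35 in 21EX to -0.11 in MP.

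Of the 5 factors that finish the small subunit 2 rose in 0PP. At their brightest probe sets all 5 had means above NP/Sed in 7EX, 21EX, LP and 0PP. Rrp12, which in yeast takes part in the export and late cutting of the small subunit, read 6.64, 6.99 and 6.90 in 0PP, against 6.24, 6.37 and 6.32 in NP/Sed. No array of 0PP overlapped NP/Sed, and Rrp12 rose by 0.54 ± 0.10, or 1.45-fold (adjusted p = 0.0173, 95% interval 0.32 to 0.76), the largest fold change in 0PP among the members. Its other groups were lower than 0PP in mean but also wholly above NP/Sed, at 0.20 in 7EX, 0.18 in 21EX, 0.17 in MP and 0.31 in LP, none of which passed.

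Pno1 rose in 0PP and in 7EX. It binds the RNA of the small subunit near the end that the nuclease Nob1 cuts. Pno1 read 8.92, 8.85 and 8.89 in 0PP and 8.75, 8.90 and 9.03 in 7EX, against 8.58, 8.47 and 8.42 in NP/Sed. Neither group overlapped NP/Sed, with 0.39 ± 0.08 in 0PP (adjusted p = 0.0234) and 0.40 ± 0.08 in 7EX (adjusted p = 0.0327). In 21EX it read 8.87, 8.81 and 8.68, again above NP/Sed, with an adjusted p of 0.0597. The 7EX call was lost without 7EX array 2 or 3 and without NP/Sed array 2 or 3, with adjusted p up to 0.157, and with the 3' minus 5' covariate (0.36, adjusted p = 0.197). The beta-actin 3' minus 5' signal was 1.05 to 1.09 in 7EX, against 1.11 to 1.36 in NP/Sed, with no overlap. In 7EX 4 of 5 markers of dividing cells also rose, with a mean level of 5.48 to 5.92 in its arrays, against 4.66 to 5.0 in NP/Sed. The 3 atrial markers were higher by mean (median 0.73) without passing. The part of these in the 7EX result was not tested.

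Nob1 differed among the 6 groups by the F-test (adjusted p = 0.0460) without passing in a single comparison. It read 7.85, 7.82 and 7.87 in 21EX, 7.79, 7.80 and 7.92 in LP and 7.79, 7.84 and 7.88 in 0PP, against 7.66, 7.63 and 7.49 in NP/Sed. These 3 groups lay wholly above NP/Sed, by 0.25, 0.24 and 0.24, with adjusted p of 0.0553, 0.0953 and 0.0750. In MP it was at 7.57, 7.59 and 7.68, within the NP/Sed range or just above it. Bysl, a further small-subunit factor, was 0.29 ± 0.09 above NP/Sed in 0PP (adjusted p = 0.113), and Ltv1, which must leave the small subunit before it matures, 0.21 ± 0.10. The other Bysl probe set was at 0.11 in 0PP and 0.003 in 7EX, but at -0.15 in 21EX, -0.11 in MP and -0.06 in LP.

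**Figure D3:**
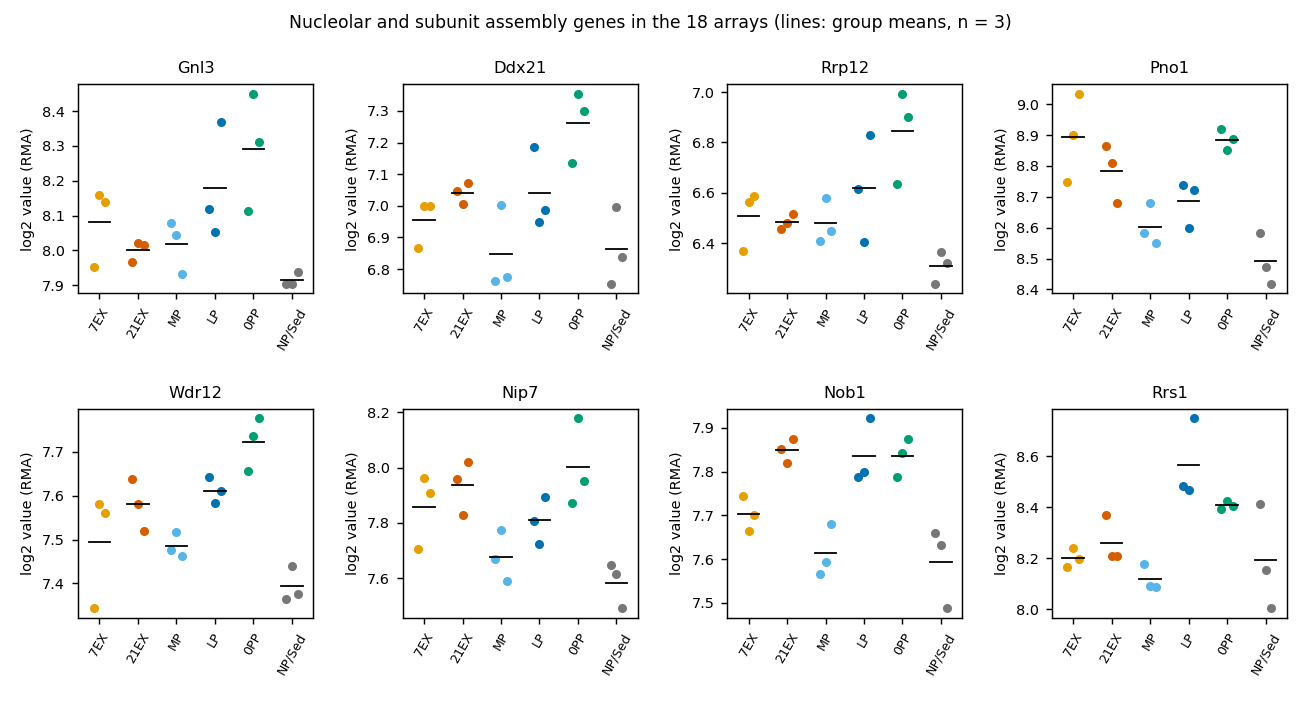
Log2 RMA values (vertical axis, a scale of its own in each panel) of 8 assembly genes in each of the 18 arrays, by group, with a line at the group mean (n = 3). In the first 6 panels the 3 arrays of 0PP lie above all 3 of NP/Sed, and for Rrs1 the LP arrays at 8.47 to 8.75 lie above the MP arrays at 8.09 to 8.18.

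Of the 9 large-subunit factors, 2 rose in 0PP. Wdr12, which forms a complex with Pes1 and Bop1, read 7.66, 7.74 and 7.78 in 0PP, against 7.36, 7.44 and 7.38 in NP/Sed (0.33 ± 0.07, adjusted p = 0.0289). Its other 2 probe sets are dim, with mean log2 values of 4.90 and 2.82, and with the 3 averaged the difference was 0.06. At their brightest probe sets its partners Pes1 and Bop1 lay above NP/Sed in all 3 arrays of 0PP too, by 0.19 ± 0.12 and 0.18 ± 0.09, without passing. At the other probe set of each, Pes1 was at 0.25 and Bop1 at -0.08. Nip7, which acts on the precursor of the large subunit's RNA, read 7.87, 8.18 and 7.95 in 0PP and 7.96, 7.83 and 8.02 in 21EX, against 7.65, 7.61 and 7.49 in NP/Sed. It rose by 0.42 ± 0.09 in 0PP (adjusted p = 0.0299) and by 0.35 ± 0.09 in 21EX (adjusted p = 0.0495). The 21EX value is at the edge of the threshold: leaving out any one of 13 of the 18 arrays lifted its adjusted p above 0.05, to 0.146 at most. The other probe set of Nip7 differed by 0.10 ± 0.09 in 0PP and 0.07 ± 0.09 in 21EX. With both averaged the values were 0.26 in 0PP (adjusted p = 0.0444) and 0.21 in 21EX (adjusted p = 0.0871). Cd68 of macrophages and Cdk1 of dividing cells rose in 21EX too, and their part was not tested.

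Rrs1, which loads a small ribosomal RNA with its proteins onto the large subunit, rose in LP against MP. It read 8.48, 8.47 and 8.75 in LP, against 8.18, 8.09 and 8.09 in MP (0.45 ± 0.10, adjusted p = 0.0224), and was the only member to pass there at its brightest probe set, where 1.01% of all genes rose and 0.901% fell. The call was lost without LP array 3, where the difference was 0.36, and without MP array 2 or 3. It was also lost with a covariate for the 3' minus 5' signal (adjusted p = 0.168) and in a fit of the LP and MP arrays alone (adjusted p = 0.108). That signal for beta-actin was 1.17 to 1.28 in LP, against 1.32 to 1.35 in MP, with no overlap. Against NP/Sed, at 8.41, 8.15 and 8.0, Rrs1 in LP had an adjusted p of 0.0530 at this probe set, and at its other probe set, of a type that can bind related transcripts, it rose by 0.48 ± 0.09 (adjusted p = 0.00968), with 8.55, 8.54 and 8.57 in LP, against 7.94, 8.21 and 8.08 in NP/Sed. Among the remaining factors Nop16 was 0.33 ± 0.10 above NP/Sed in 0PP (adjusted p = 0.0998), Nop2 0.15 ± 0.07, Mak16 0.07 ± 0.08 and Rrp1b -0.03 ± 0.10. Rrp1b was lowest in 7EX, at 6.64, 6.81 and 6.90, against 7.03, 7.19 and 7.03 in NP/Sed (-0.30 ± 0.10, adjusted p = 0.167).

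**Figure D4:**
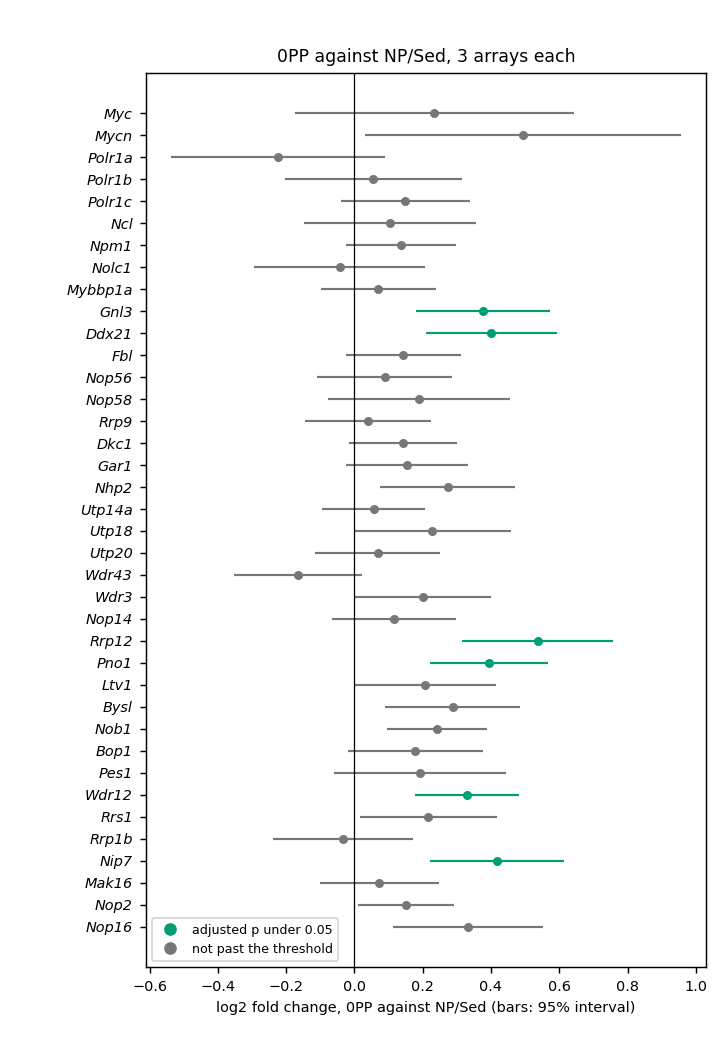
Log2 fold change in 0PP against NP/Sed (horizontal axis) of the 38 members with its 95% interval from limma (n = 3 arrays in each group), green where the adjusted p is under 0.05. Points lie to the right of 0 for 34 members, and the 6 green ones lie between 0.33 and 0.54.

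The 0PP calls rest on few arrays. Of the 38 members 0 passed by limma without NP/Sed array 3, without 0PP array 2 or without 0PP array 3, and 2 passed without NP/Sed array 2, while all 6 fold changes stayed between 0.30 and 0.64 with any array left out. The count was 3 after a repeated quantile normalization, 2 with the covariate for the 3' minus 5' signal and 1 in a fit of the 0PP and NP/Sed arrays alone. That signal, the excess at the end of the transcript that RNA degradation raises, was 1.28 to 1.32 for beta-actin in the 0PP arrays, against 1.11 to 1.36 in NP/Sed. Of the other cell markers, 2 of 5 of macrophages (Cd68 and Cd163) and 1 of 3 of red cell precursors (Alas2) rose in 0PP, and 0 of those of cardiomyocytes, atria, endothelium, fibroblasts, lymphocytes, adipocytes or dividing cells did. The 3 atrial markers (Myl4, Sln and Myl7) were nonetheless 0.88 to 1.16 above NP/Sed by mean, with an array level of 8.37 to 9.63 in 0PP, against 7.31 to 8.94 in NP/Sed, and Adipoq of adipocytes differed by 1.60 ± 0.43 (adjusted p = 0.0587). The mean level of the macrophage markers was 7.87 to 7.98 in 0PP, against 7.39 to 7.59 in NP/Sed, that of red cell precursors 5.09 to 5.13, against 4.82 to 4.91, and their part in the 0PP result was not tested.

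At their brightest probe sets, nearly all members were higher in late than in mid-pregnancy by mean. In LP 35 of 38 were above MP, with a median of 0.12 (0.07 without LP array 3), where 43.2% of all genes were above MP with a median of -0.02. Of the 23 members with several probe sets, 10 had all of them above MP and 13 were mixed. The LP arrays lay above all MP arrays for 9 members and below them for 0, against 10.6% and 13.0% of all genes. Unadjusted, 10 members had a p under 0.05 and were higher in LP, and 0 were lower, beside 7.73% and 7.95% of all genes. In the same comparison Col1a1 and Col1a2 of fibroblasts, Csf1r of macrophages, Alas2 and Slc4a1 of red cell precursors and Cdk1 of dividing cells fell. All 5 markers of dividing cells lay in LP below all MP arrays (median -0.61), and the 3 atrial markers were below MP by mean (median -0.67) without passing. The beta-actin signal given above for Rrs1 separates the same groups. The part of these in the result was not tested. The mean level of the fibroblast markers was 9.98 to 10.10 in LP, against 10.25 to 10.42 in MP. In 0PP against LP the median was 0.08 (0.02 without LP array 2), with 25 members above 0, 5 wholly above and 2 wholly below (all genes 10.5% and 8.06%), and between 21EX and 7EX 0.01, with 20 above 0. In that last comparison 0 members passed in limma (0 of all genes rose and 0.00550% fell), and 0 had an unadjusted p under 0.05.

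The ribosome's own proteins gave other values than the assembly genes. Of 80 cytosolic ribosomal proteins 44 had a probe set of their own, and 0 of these passed by limma in any of the 9 comparisons. In LP against MP 5 of the 44 were above 0, with a median of -0.09, and for 29 of them the LP arrays lay below all MP arrays, against 13.0% of all genes. Rps6, a small-subunit protein and the one with the smallest F-test p, was 0.23 ± 0.09 above NP/Sed in 0PP and 0.33 ± 0.09 in 7EX, neither of which passed. The list as a whole did not share this. Its median difference from the NP/Sed mean was 0.069, -0.007 and -0.011 in the 0PP arrays and -0.033, -0.007 and -0.045 in the 7EX arrays. In the NP/Sed arrays themselves it was -0.104, 0.056 and 0.055. In 0PP against LP 43 of the 44 were above 0, with a median of 0.07, against 50.7% of all genes, and 16 lay wholly above LP, against 10.5% of all genes.

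A few further factors of the same pathway also rose in 0PP, and some rose in 21EX or in LP against MP. Of 50 other large-subunit factors 5 rose in 0PP and 0 fell, which were Rpf2, Ebna1bp2, Nmd3, Nifk and Rrp15, and Nifk rose by 0.39 ± 0.09 (adjusted p = 0.0429). In MP 2 of the 50 fell, Ddx55 (-0.38 ± 0.08, adjusted p = 0.0360) and Gnl2. Rpf1, a large-subunit factor, rose in 21EX by 0.35 ± 0.09 (adjusted p = 0.0401) and in LP against MP by 0.39 ± 0.09 (adjusted p = 0.0307). Of 47 other small-subunit factors 1 rose in 0PP, the methyltransferase Emg1 (0.27 ± 0.07, adjusted p = 0.0444). In 0PP 41 of the 47 were above 0, against 52.9% of all genes. Of 31 further subunits and factors of RNA polymerases I and III 3 rose in 0PP, which were Polr1e, Bdp1 and Gtf3a. Polr1e, a subunit of RNA polymerase I that was not among the members, rose by 0.37 ± 0.09 against NP/Sed and by 0.48 ± 0.09 against LP (adjusted p = 0.0360 and 0.0120). Polr3a and Rrn3 of these 31 rose in 21EX, as did the small-subunit factor Imp3. The large-subunit factor Ddx18 rose in LP against MP. Gtf3c5 of the 31 was lower in pregnancy than with exercise, where 2.36% of all genes were lower. The counts in 0PP read against 2.40% of all genes that rose there, and 1 of 47 is near that share. The others read against 0.198% of all genes that fell in MP and 2.25% that rose in 21EX. In LP against MP 1.01% of all genes rose, and in 0PP against LP 0.868%.

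The arrays of a group also differed among themselves over the whole set. The median over the 38 members of the difference from the NP/Sed mean was 0.15, 0.21 and 0.17 in the 3 arrays of 0PP and 0.09, 0.03 and 0.22 in those of LP. It was -0.05, 0.01 and -0.01 in MP, 0.11, 0.06 and 0.10 in 21EX and -0.00, 0.11 and 0.14 in 7EX. All 3 arrays of 0PP thus stood high, while LP array 3, where Myc was highest, stood apart from the other LP arrays, and 7EX array 1 stayed at the NP/Sed level. In NP/Sed the median was -0.01, 0.02 and -0.00, and over all genes it lay between -0.01 and 0.06 in every array.

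**Figure D5:**
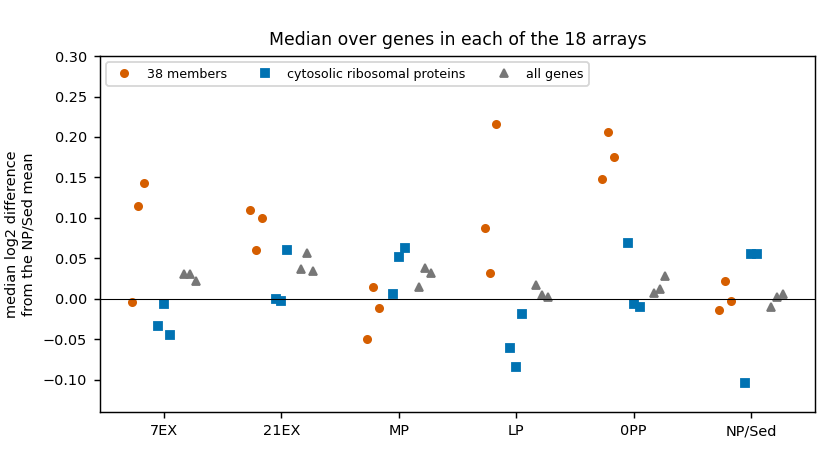
Median log2 difference from the NP/Sed mean (vertical axis) over the 38 members, 44 cytosolic ribosomal proteins and all genes in each of the 18 arrays, by group. The members' points in 0PP lie at 0.15 to 0.21 and in MP at -0.05 to 0.01. The ribosomal proteins lie at -0.08 to -0.02 in LP, within the range of the NP/Sed arrays (-0.10 to 0.06). Arrays of other groups also lie below 0 for them.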

How the data were processed

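The deposited values are log2 RMA values, made by the authors across all 18 mouse genome arrays in R 2.12.2 (background correction, quantile normalization, summarization per probe set). Of 45101 probe sets the 64 Affymetrix controls were left out. Of the 45037 tested, 34945 are annotated to 1 gene, 932 to several and 9160 to none. Linear models were fitted to the 6 groups together in limma 3.58.1 under R 4.3.3 (12 residual and 6.45 prior degrees of freedom), checked on simulated data, and 9 comparisons and the F-test were read at an adjusted p under 0.05. The authors tested with Cyber-T instead. Its regularised variance was re-implemented as an alternative (window 101, weight 10, at the same adjusted p), without the authors' posterior probability. The number of arrays limits the precision.

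All 38 members are named. Array values are given for Myc, Mycn, each member that passed in at least 1 comparison and those with the smallest F-test p in each role, and of other lists at most 3 genes by F-test p, beside genes named after their values were seen where a count was 5 or fewer. The members, roles and the 6 other lists were chosen with earlier results of these data known. RefSeq promoter windows were searched with Python 3.11.15.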

Additional observations from a re-analysis of the deposited data

Results flagged for a closer look

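In 5 results the direct test between growth states passed, so that one growth state differed from another at that probe set. Mycn was higher in 0PP than in LP by 1.18 on the log2 scale (adjusted p = 0.0145) and differed between pregnancy and exercise by -0.58 (adjusted p = 0.0297), both at its brightest probe set and not at the other 2. In LP against MP, Rrs1 rose by 0.45 (adjusted p = 0.0224), Ncl at its second brightest probe set by 0.77 (adjusted p = 0.0133) and Nolc1 at its second brightest by 0.49 (adjusted p = 0.0282). Ncl and Nolc1 did not pass at their brightest probe sets. Groups of 3 arrays were not tested for single arrays that stand apart.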

How the results depend on the processing

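The count of members passing in 21EX against 7EX stayed at 0 under all 11 alternatives and without any array. With the 75% fold limit the counts were 0 in 7EX, 21EX, 0PP, LP against MP and pregnancy against exercise. In fits of the compared groups alone they were 0 in 7EX, 21EX, 0PP against LP and LP against MP, and 1 in 0PP. With Cyber-T 1 member passed in LP, Mycn, which was lower. In LP 2 passed with an intensity trend and with median centring (Myc among them), and 3 with a mean log2 value of at least 5 and with the probe sets of a gene averaged. In 21EX 4 passed with the trend, the level filter and median centring, 3 with averaged probe sets and 0 after repeated quantile normalization, which gave 3 in 0PP and 4 by the F-test. Averaged probe sets gave 0 in 0PP against LP and in pregnancy against exercise. Taking any probe set of the gene gave 2 in 21EX, 1 in MP, 1 in LP and 3 in LP against MP. With the 3' minus 5' covariate 0 passed in 7EX, 21EX, LP against MP and pregnancy against exercise, 2 in 0PP and 4 by the F-test. The cause of these changes was not tested, save that the fold limit and the fits of fewer arrays ask for more of the same values.

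Array numbers do not pair the samples: same-numbered arrays correlated in their deviations between -0.224 and 0.145 (45 pairs), and 3 of 18 arrays correlated best with their own number. With the replicate number as a block the count was 0 in 7EX and 21EX and 3 by the F-test, and 5 of the 6 calls in 0PP were kept. Without each array in turn the counts ran from 0 to 1 in 7EX, 0 to 3 in 21EX, 0 to 0 in MP, 0 to 2 in LP, 0 to 6 in 0PP, 0 to 1 in 0PP against LP, 0 to 3 in LP against MP, 0 to 1 in pregnancy against exercise and 2 to 5 by the F-test. No alternative turned the direction of a call. No measure of signal over background was used here.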

Other observations

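Some other genes of the Myc pathway passed between the stages of pregnancy or against NP/Sed. Of 20 partners and regulators of Myc 1 rose in LP against MP and 0 fell, where 1.01% of all genes rose and 0.901% fell. Max, the partner of Myc, differed there by 0.41 ± 0.11 (adjusted p = 0.0755). Mxi1, which competes with Myc for Max, rose in LP against MP by 0.44 ± 0.08 (adjusted p = 0.0106) and was higher in pregnancy than with exercise by 0.21 ± 0.05 (adjusted p = 0.0417). Of 33 growth genes known as Myc targets 1 rose and 2 fell in LP against MP, and 1 rose and 1 fell in 0PP against LP, where 0.868% of all genes rose and 0.462% fell. Ccnd1, the cyclin of early cell cycle entry, averaged 9.54 in 0PP and 8.72 in LP, a rise of 0.82 ± 0.13 (adjusted p = 0.00439), and fell in LP against MP (-0.65 ± 0.13, adjusted p = 0.0159). Nampt, an enzyme of NAD synthesis, ran the other way, with -0.48 ± 0.10 in 0PP against LP (adjusted p = 0.0213) and 0.48 ± 0.10 in LP against MP (adjusted p = 0.0148). Tfrc, the transferrin receptor, averaged 9.11 in LP and 10.22 in MP (-1.11 ± 0.20, adjusted p = 0.00772), in a comparison where 2 of 3 markers of red cell precursors fell as well, a link that was not tested. Against NP/Sed, the targets Srm, Cad and Nampt rose in LP (all genes 1.80%) and Cad, Cdk4, Pcna and Mcm7 in 21EX (2.25%). Pcna rose in 7EX (0.693%), and in 0PP Srm rose (2.40%) and Shmt1 fell (0.302%). Between pregnancy and exercise Nampt was higher (1.73%), and Ccnd1, Pcna and Mcm7 were lower (2.36%).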
